A study of Mus musculus with 3 samples.

Results

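The regions described here are all open-chromatin regions of mouse chromosome 15 in 3 deposited region lists, 10597 of 182233 regions at 0 h, 10057 of 178055 at 6 h and 7605 of 145044 at 72 h. They were chosen from the lists by chromosome alone, 28259 of 505332 regions over the 3 lists, and being listed is itself the measurement, so numbers of regions are given as a description with no test. Chromatin accessibility had been assayed by ATAC-seq, in which a transposase inserts sequencing adapters where DNA is not packed by nucleosomes, on 50000 cells per library of ECOMG, a mouse myeloid progenitor line. All 3 libraries carried the genotype FKBP12F36V_NIPBL, a fusion of the cohesin loader NIPBL with a degron, and all grew in GM-CSF and β-estradiol. The 0 h library was made without dTAG, the small molecule that marks the degron-tagged protein for breakdown, and the 6 h and 72 h libraries after that time with dTAG. No library without dTAG at 6 h or 72 h, and none of untagged cells, was used here, so the part of dTAG cannot be told apart from that of time or library, and the labels do not say whether the line is 1 clone. Each time had 1 library, so no difference between times has a replicate check.

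Cohesin is a ring-shaped protein complex that extrudes loops of chromatin and holds sister chromatids together, and NIPBL loads it and drives the extrusion. Loops and the domains they form bring distal enhancers near promoters, and open regions mark promoters, enhancers and sites of bound factors such as CTCF, at which extrusion halts. Chromosome 15 of the mouse carries Nipbl itself and the cohesin subunit Rad21, both β chains of the GM-CSF and interleukin 3 receptors (Csf2rb and Csf2rb2), Myc, the Hoxc cluster, the Ly6 surface antigens, the apolipoprotein L genes and the type II keratins.

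Promoters of 7 genes are shown first, because the results turn on their regions: Sp1 and Myh9 among the highest, Csf2rb2 as a steady receptor gene, Apol8 and Parvg as higher at 72 h, Ly6g as listed only from 6 h on, and Hoxc4 as listed until 6 h. Each window holds 250 bases before to 50 bases after the annotated start, 300 in all, on the strand of the gene, from RefSeq (GRCm38.p6, the assembly of mm10). The table gave 936 windows on chromosome 15, 526 of them for 422 of its 776 coding genes and 410 for 339 other genes. Capitals mark GGGCGG (the GC box, bound by the SP1 family), GGAAGT (a core of ETS factor sites) and GAGGAA (a core of the sites of PU.1, the myeloid ETS factor), searched on both strands, so that their reverse complements are in capitals too. The last 2 motifs overlap where GAGGAA is followed by GT.
Sp1, chr15:102406066-102406365, plus strand: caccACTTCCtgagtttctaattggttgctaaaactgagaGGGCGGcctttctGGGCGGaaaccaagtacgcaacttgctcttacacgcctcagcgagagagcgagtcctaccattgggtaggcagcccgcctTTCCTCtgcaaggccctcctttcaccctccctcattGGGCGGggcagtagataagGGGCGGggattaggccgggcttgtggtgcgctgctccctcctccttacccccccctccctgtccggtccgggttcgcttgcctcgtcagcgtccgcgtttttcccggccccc
Myh9, chr15:77842126-77842425, minus strand: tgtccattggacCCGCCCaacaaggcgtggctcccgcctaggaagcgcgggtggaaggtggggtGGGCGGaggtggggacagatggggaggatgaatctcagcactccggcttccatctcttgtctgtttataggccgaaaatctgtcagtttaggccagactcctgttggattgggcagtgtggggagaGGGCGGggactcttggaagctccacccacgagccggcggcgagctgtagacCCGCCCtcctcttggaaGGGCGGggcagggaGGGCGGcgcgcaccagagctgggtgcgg
Csf2rb2, chr15:78305672-78305971, minus strand: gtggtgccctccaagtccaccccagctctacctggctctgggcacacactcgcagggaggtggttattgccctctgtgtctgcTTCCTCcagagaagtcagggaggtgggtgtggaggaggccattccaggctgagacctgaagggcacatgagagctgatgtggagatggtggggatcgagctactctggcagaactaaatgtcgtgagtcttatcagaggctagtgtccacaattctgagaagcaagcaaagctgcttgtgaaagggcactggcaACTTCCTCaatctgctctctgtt
Apol8, chr15:77756961-77757260, minus strand: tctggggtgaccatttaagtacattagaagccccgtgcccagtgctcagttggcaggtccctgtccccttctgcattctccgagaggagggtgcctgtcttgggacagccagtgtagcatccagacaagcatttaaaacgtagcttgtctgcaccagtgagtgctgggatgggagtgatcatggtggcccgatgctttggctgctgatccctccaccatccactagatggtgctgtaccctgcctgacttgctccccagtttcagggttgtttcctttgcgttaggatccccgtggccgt
Parvg, chr15:84324470-84324769, plus strand: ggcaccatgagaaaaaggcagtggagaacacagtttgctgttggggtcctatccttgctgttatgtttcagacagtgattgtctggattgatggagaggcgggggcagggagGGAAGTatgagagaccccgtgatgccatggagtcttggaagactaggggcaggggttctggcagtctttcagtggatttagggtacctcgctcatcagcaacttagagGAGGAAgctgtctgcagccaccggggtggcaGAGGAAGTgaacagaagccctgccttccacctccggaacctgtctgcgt
Ly6g, chr15:75155011-75155310, plus strand: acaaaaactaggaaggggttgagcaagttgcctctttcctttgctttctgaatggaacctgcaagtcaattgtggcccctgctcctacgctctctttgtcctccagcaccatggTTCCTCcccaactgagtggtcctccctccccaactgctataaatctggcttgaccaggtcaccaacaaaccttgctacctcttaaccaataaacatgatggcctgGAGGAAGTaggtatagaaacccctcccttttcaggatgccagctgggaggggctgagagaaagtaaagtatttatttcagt
Hoxc4, chr15:103034145-103034444, plus strand: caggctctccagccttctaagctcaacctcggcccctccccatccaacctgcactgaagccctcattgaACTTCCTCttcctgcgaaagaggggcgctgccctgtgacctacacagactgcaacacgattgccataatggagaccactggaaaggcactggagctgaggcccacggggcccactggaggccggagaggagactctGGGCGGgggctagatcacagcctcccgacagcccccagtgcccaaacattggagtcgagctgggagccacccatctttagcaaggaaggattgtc

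The height of a region is its fold, the authors' ratio of the summit signal to background, as their peak caller wrote it. The Sp1 window lay in a region of fold 249 at 0 h, 310 at 6 h and 325 at 72 h, and the Myh9 window in one of fold 206, 244 and 280. Both hold several GC boxes, 4 in Sp1 and 6 in Myh9. The Csf2rb2 window, without a GC box and with 2 GAGGAA cores, lay in a region of fold 39.3, 44.5 and 42.9. The Apol8 window holds none of the 3 motifs, and its region had a fold of 30.2, 30.9 and 47.6. The Parvg window, with 2 GAGGAA cores and no GC box, overlapped 2 regions at each time, the higher with a fold of 21.2, 13.6 and 60.9. The Ly6g window had no region at 0 h and 1 of fold 8.29 at 6 h and 12.5 at 72 h. The Hoxc4 window had 1 of fold 8.31 at 0 h and 6.78 at 6 h and none at 72 h. Of all 936 windows of the chromosome, 402 held a region at 0 h, 406 at 6 h and 370 at 72 h, and 508 held none in any list. A GC box stood in 62.2% (95% interval 57.2 to 67.0) of the windows with a 0 h region, in 16.1% (13.1 to 19.6) of those with none in any list, and in 35.7% of all 32851 windows in the table. In the windows of coding genes alone, of which 309 had a 0 h region and 201 none in any list, the GC box shares were 69.6% and 24.4%. Over all windows of the chromosome, the median GC content was 61.3% in the 402 with a 0 h region. It was 49.3% in the 508 with none in any list, so base composition differed with the GC box. GGAAGT stood in 30.6% of the windows with a 0 h region, 19.7% of those with none and 23.8% of all windows, and GAGGAA in 27.6%, 30.3% and 28.3%. Shares here and below have exact Clopper-Pearson 95% intervals, which cover counting error only.

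The 3 lists differ in length, and the sources used here give no read totals. The myeloid label was checked on 10 genes, of which 8, with Spi1 (PU.1) and Cebpa among them, had a region within 1 kb of a gene end at each time. Mpo and Csf3r had none there at any time. The 10 myeloid loci held 170, 162 and 158 regions in all, of which Ptprc alone had 22, 20 and 38. The 6 lymphoid loci held 41, 36 and 16, the 6 erythroid and megakaryocyte ones 40, 38 and 29, and the 6 epithelial and hepatic ones 39, 36 and 30. The 4 neural loci held 61, 53 and 25, of which Rbfox3 alone had 44, 42 and 19. Markers of other cell types were thus not free of regions: at 0 h an end region was listed for 3 of the lymphoid, 3 of the erythroid and megakaryocyte, 4 of the epithelial and hepatic and 2 of the neural genes, and at 72 h for 2, 4, 3 and 0. The globin gene Hbb-b1 had none at any time. In a bulk library, fewer cells with an open site and less opening per cell cannot be told apart.

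Chromosome 15 held more listed regions than its gene number would give by the ratio of the other autosomes. It carries 776 coding genes on 103943676 bp, 7.47 per Mb, which is the 12th highest gene density of the 19 autosomes, where the other 18 together had 8.44 per Mb. Yet it had 102 regions per Mb at 0 h, 96.8 at 6 h and 73.2 at 72 h, against 71.2, 69.7 and 56.9 over the other autosomes. Only chromosome 11, with 113 per Mb, was denser at 0 h, and chromosome 15 was the third densest at 6 h and 72 h. Per coding gene it ranked highest of the 19 at every time, with 13.7, 13.0 and 9.80 regions against 8.44, 8.26 and 6.75 elsewhere. The plot of density against gene number sets the chromosome above the band of the others in all 3 libraries.

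**Figure D1:**
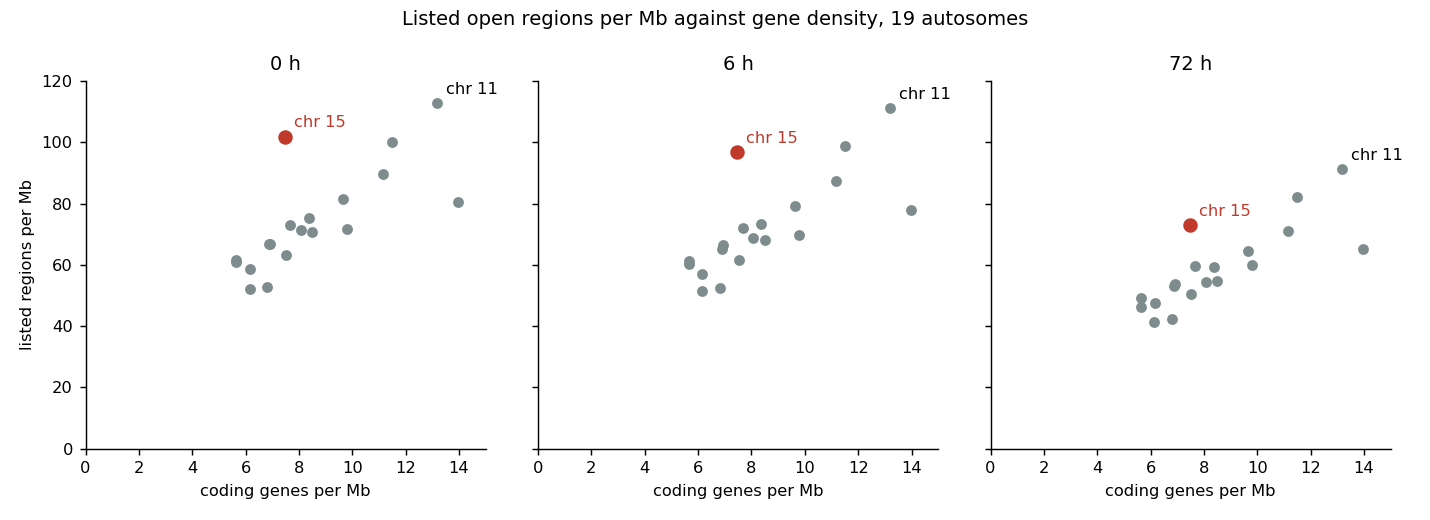
Listed regions per Mb (vertical axis) against coding genes per Mb (horizontal axis) for the 19 autosomes, 1 point per autosome, at 0 h, 6 h and 72 h; chromosome 15 is the large red point. It sits at 102, 96.8 and 73.2 regions per Mb, above autosomes of like gene density, and chromosome 11 is the highest point at each time.

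The excess was present at every gene density. Each 1 Mb bin was set beside bins of the other autosomes with a like number of coding genes, in 5 classes. Over the chromosome the number of regions was 1.62 times that of matched bins at 0 h, 1.58 times at 6 h and 1.48 times at 72 h, the highest of the 19 autosomes at each time, with chromosome 11 next at 1.22, 1.24 and 1.21. By class at 0 h the mean number per bin was 31.5 against 20.6 in bins of 0 to 2 genes, 79.8 against 52.6 in bins of 3 to 5, 119 against 78.1 in bins of 6 to 9, 209 against 104 in bins of 10 to 15, and 262 against 159 in bins of 16 or more. In the poorest class chromosome 13 had a higher mean, 36.4. In 80 of the 100 full bins that hold listed regions the number at 0 h was above the median of its class. Weak and high regions shared the excess: regions with a fold of at least 20 were 1.64, 1.64 and 1.57 times those of matched bins.

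**Figure D2:**
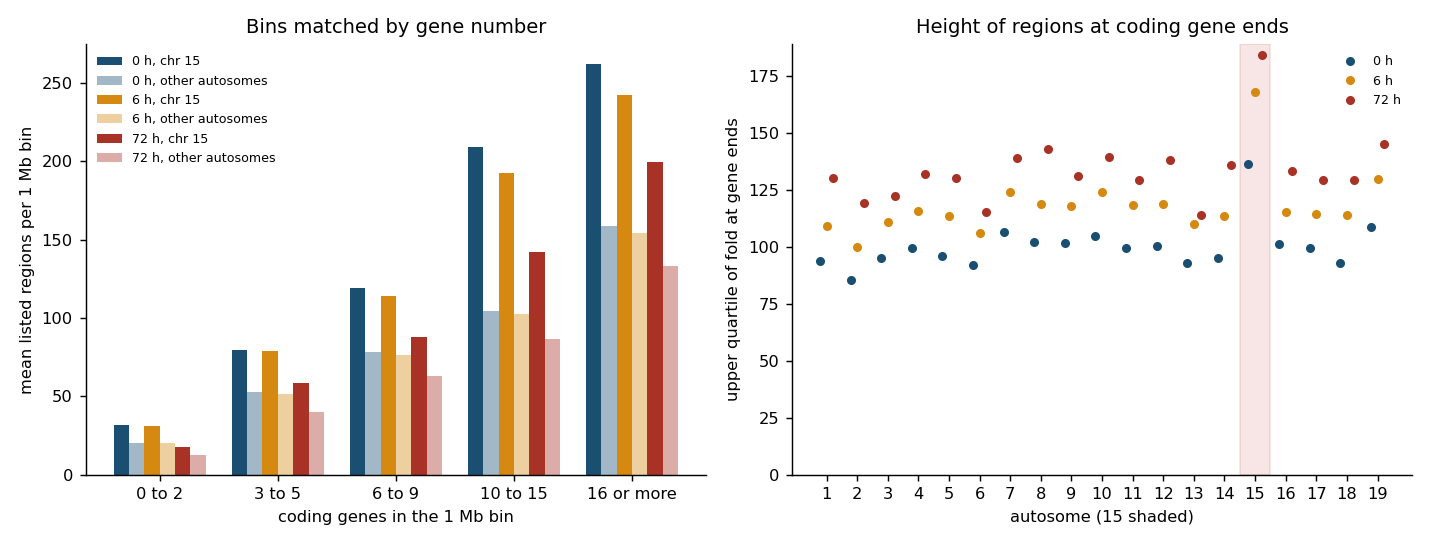
Left, mean number of listed regions per 1 Mb bin (bars, from 0) by the number of coding genes in the bin, chromosome 15 in full colour and the other autosomes pale, at 0 h, 6 h and 72 h. Right, upper quartile of the fold of regions at coding gene ends for each autosome; chromosome 15 (shaded) is highest at each time, at 137, 168 and 184.

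The upper part of the regions at gene ends was also higher on this chromosome. Within 1 kb of either end of a coding gene, 594 of its 776 genes (76.5%) had a region at 0 h, the highest share of the 19 autosomes, 583 at 6 h and 517 (66.6%, the 4th highest share) at 72 h, against 65.8% and 60.8% over the other autosomes at 0 h and 72 h. The median fold of the end regions was 76.4, 89.7 and 108, against 59.0, 67.1 and 74.9 elsewhere, and their upper quartile of 137, 168 and 184 stood above 98.3, 115 and 130. Their lower quartile was close to that elsewhere at 0 h, 21.5 against 21.9, with 26.8 against 24.1 at 6 h and 39.0 against 29.7 at 72 h. Ranked by height among the 12290 coding genes of the autosomes with an end region in all 3 lists, the 505 of chromosome 15 had a median percentile of 68.1, 69.7 and 65.0. At 0 h the upper quartile was at least 113 in each 10 Mb stretch of the chromosome, so the height was not that of 1 stretch. These quartiles rest on 9 genes with an end region in bins 21 to 30 and up to 158 in bins 71 to 80, so those of gene-poor stretches are rough. Of the 100 highest autosomal regions 16 were on this chromosome at 0 h, 19 at 6 h and 22 at 72 h, where its share of all autosomal regions was 5.94%, 5.77% and 5.36%. Among the 1000 highest its share was 14.4%, 14.3% and 13.2%, and among the 10000 highest 6.67%, 6.68% and 6.62%, without a rise at 72 h. The median fold over all its regions, 6.80, 7.53 and 9.37, equalled that of the other autosomes. At every time 100% of its folds and of those elsewhere lay on the same even grid, with steps of 0.756, 0.754 and 0.781, so the same background served all chromosomes of a library.

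Along the chromosome the bins with the most regions were rich in genes and those with the fewest poor in them, with exceptions between. At 0 h bin 60 held 246 regions with 5 coding genes, and bin 75 held 117 with 21. The full bins held 5 to 363 regions at 0 h (median 73), 7 to 339 at 6 h and from none to 322 at 72 h. The richest, bin 77 (76000001 to 77000000, with 52 coding genes, Plec, Scrib and Hsf1 among them), held 363, 339 and 322 regions. Next came bin 100 (99000001 to 100000000, with Racgap1 and Tmbim6) with 361, 337 and 294, bin 79 (78000001 to 79000000, with Csf2rb, Csf2rb2, Ncf4 and Rac2) with 359, 333 and 269, bin 80 with 347, 318 and 233, and bin 99 with 311, 273 and 211. The emptiest, bin 71 (70000001 to 71000000), has no coding gene and held 5, 7 and 2 regions. Against matched bins, the 10 Mb stretches lay between 1.27 and 1.90 times at 0 h. At 72 h the range was wider. The lowest were 0.930 in bins 11 to 20 and 0.939 in bins 41 to 50, with 24 and 17 coding genes. The highest was 2.19 in bins 61 to 70, which hold 25 coding genes, Myc among them, and Pvt1. Bins 21 to 30, with the fewest coding genes, 16, stood at 1.58.

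**Figure D3:**
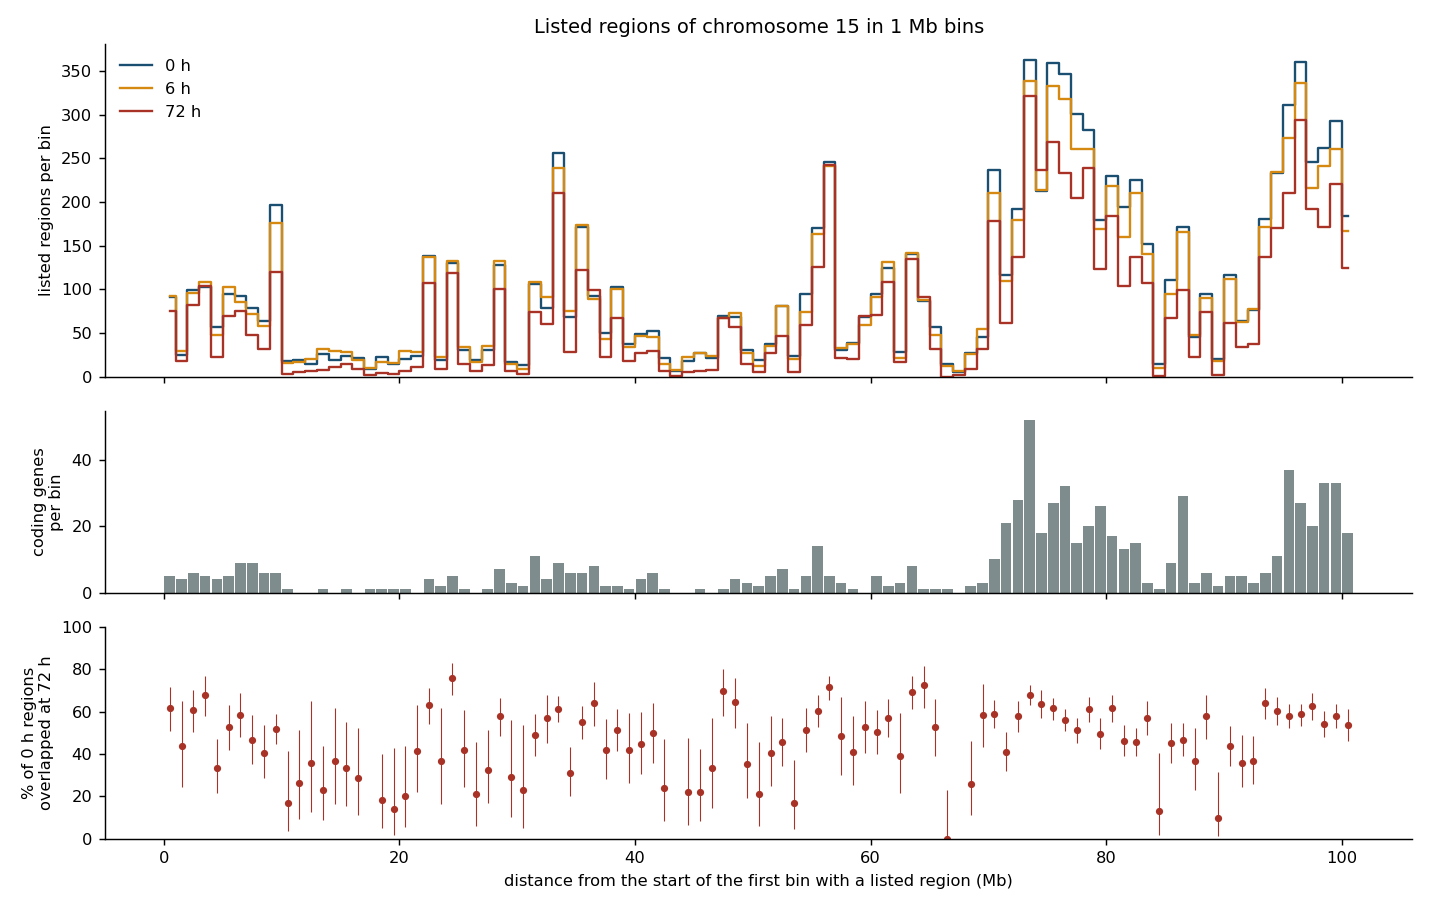
Top, listed regions per 1 Mb bin at 0 h, 6 h and 72 h; middle, coding genes per bin; bottom, share of the 0 h regions of a bin that a 72 h region overlapped, with exact 95% intervals, for bins with at least 10 regions. The horizontal axis is the distance in Mb from the start of the first bin with a region; the 72 h line lies below that of 0 h in 93 of 98 bins, and the shares run from 0% to 76.2%.

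The number of all listed regions differed more between times on chromosome 15 than on any other autosome. It decreased by 5.10% from 0 h to 6 h, and over the other autosomes it decreased by 2.15%. From 0 h to 72 h it decreased by 28.2%, and elsewhere it decreased by 20.1%. The next was chromosome 18, where it decreased by 23.9%. Above a fixed fold the direction was the opposite, here and on the other autosomes. Regions with a fold of at least 10 numbered 34.8, 37.2 and 36.2 per Mb at the 3 times in turn, against 26.2, 27.3 and 28.3 elsewhere. The ratio of the 2 was 1.33, 1.36 and 1.28. Those of at least 20 numbered 2106, 2239 and 2321, and elsewhere 33791, 36001 and 39198. Those of at least 100 numbered 309, 395 and 474, and elsewhere 3476, 4914 and 6481. Of the 98 bins with at least 10 regions at 0 h, 93 held fewer at 72 h and 5 held more, and at 6 h 64 held fewer and 32 more. The 5 were bins 7 (103 and 104 regions), 40 (92 and 99), 63 (68 and 70), 68 (87 and 91) and 78 (213 and 237). They hold Dab2 and Fyb (bin 7), Lrp12 (bin 40), the noncoding gene Pvt1 (bin 63), St3gal1 (bin 68) and Apol8 with Myh9 (bin 78).

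Over all regions, a smaller share of the 0 h list was overlapped later here than on any other autosome, which did not hold for strong regions. At 6 h a region overlapped 72.6% (71.7 to 73.4) of the 10597 regions of 0 h, against 76.8% over the other autosomes and 75.7% on the next lowest, chromosome 1. At 72 h the share was 54.8% (53.9 to 55.8) against 60.1%, and 57.4% on chromosome 18. Strong regions, the upper 50% of a list by −log10 q, were much closer: 97.4% against 97.5% at 6 h, and 83.2% against 84.3% at 72 h, the 4th and the 2nd lowest of the 19 autosomes. With a fold of at least 10 at 0 h the difference turned at 6 h, to 99.9% against 99.8%, and was 93.0% against 93.8% at 72 h. By strength, 16.5% of the weakest 25% of the 0 h list were overlapped at 72 h, 34.8% of the next, 69.2% of the third and 97.6% of the strongest, where the other autosomes had 20.8%, 39.2%, 72.1% and 97.9%. The weakest class made up 23.2% of the regions of chromosome 15 and 19.5% elsewhere. With the 4 classes weighted as on the other autosomes, the share at 72 h was 57.2% and that at 6 h 75.1%. Strength thus moved with the difference in overlap, and its part was tested no further. Regions listed at 0 h alone were 23.8% of the chromosome's 0 h list and 19.5% elsewhere, and those in all 3 lists 51.2% and 56.4%. In the other direction, 78.8% of the 72 h regions had a 0 h region, against 77.2% elsewhere.

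**Figure D4:**
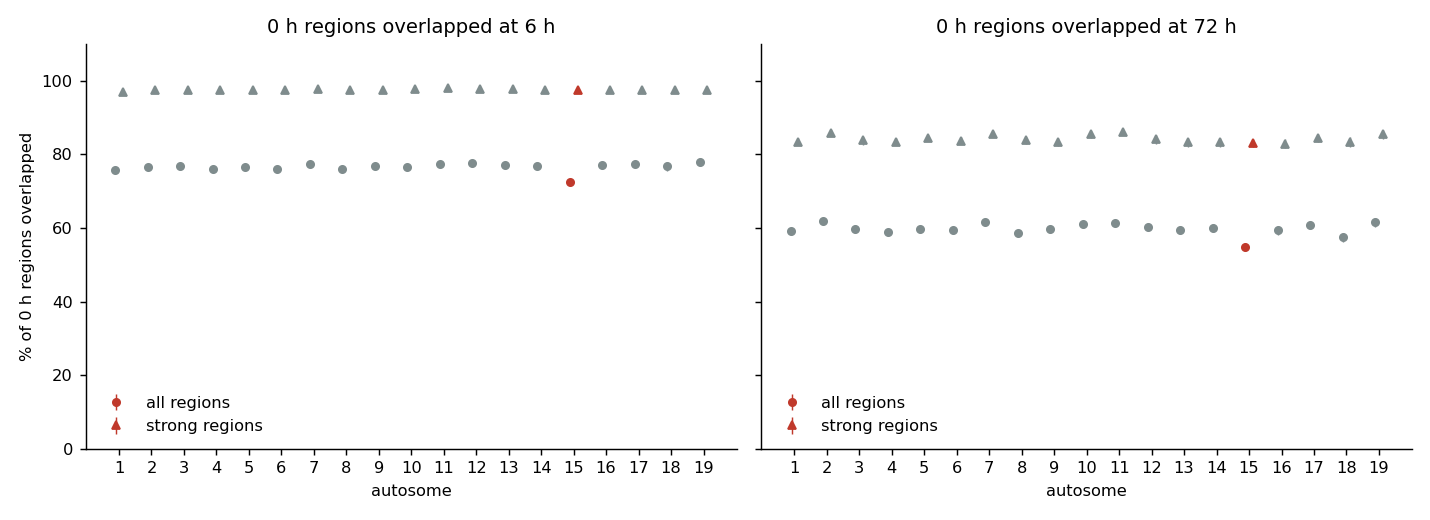
Share of 0 h regions overlapped by at least 1 bp at 6 h (left) and 72 h (right) on each autosome, for all regions (circles) and strong regions (triangles), with exact 95% intervals mostly smaller than the symbols; chromosome 15 is red. Its circle is the lowest in both panels, 72.6% and 54.8%, and its triangle lies within those of the other autosomes.

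Strong regions were lost and gained at about the rate of the genome at 6 h, while at 72 h somewhat more were lost and fewer gained. At 6 h 137 of the 5319 strong 0 h regions had no overlap, 2.58%, where 2.47% of all autosomal strong regions were lost, and 1.56% of the strong 6 h regions were gained, where the autosomes had 1.7%. At 72 h 895 of the 5319 were lost, 16.8% (15.8 to 17.9), beside 15.7% over all autosomes and 17.1% on the highest, chromosome 16. Of the 3984 strong regions at 72 h 238 were gained, 5.97% (5.26 to 6.76), beside 7.18%. That was the lowest share of the autosomes, level with chromosome 8. Regions at gene ends stood further apart: 87 of the 594 genes with an end region at 0 h had none at 72 h, 14.6% (11.9 to 17.7), where all autosomes had 9.64% and the others 9.41%. Of the 517 genes with an end region at 72 h, 10 lacked one at 0 h, 1.93%, beside 1.98%. A region can leave the 1 kb window because its edges differ between lists: 2 of the 87 genes had a 0 h end region that a 72 h region still overlapped. Without those genes the share was 14.3% (11.6 to 17.4), against 9.15% on the other autosomes. The remaining 85 were mostly weak, with a median fold of 5.29 and a highest of 21.2, that of Krt4.

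Strong lost regions were most numerous in bin 102 (101000001 to 102000000), with 30 of its 138 strong regions, of which the keratin genes from Krt80 to Krt78 held 15 of 46, beside Acvrl1, Acvr1b and Nr4a1. Next came bin 86 (Wnt7b, Ppara, Celsr1) with 25 of 100, bin 99 with 24 of 163, bin 80 with 22 of 175 and bin 90 (Shank3, Plxnb2) with 21 of 84. The order is by number, which also depends on how many strong regions a bin holds. Bins 99 and 80 lost a smaller share than the 16.8% of the whole chromosome. The strongest single ones lay 22490 bp from Sema5a at 32718766 to 32718898, where the fold was 34.8 at 0 h and 27.9 at 6 h with no region at 72 h, and inside Ndrg1 at 66949105 to 66949348, with 32.5, 40.7 and none. By nearest gene end within 100 kb, Ano6, a phospholipid scramblase of membranes, led with 12 lost strong regions and 41, 43 and 27 regions at its locus, which takes in 10 kb beyond each end of the gene. Scn8a, a neuronal sodium channel, had 8 (35, 32 and 11), and Slc38a4, Wnt7b and Celsr1 had 7 each. Wnt7b is a secreted WNT ligand and Celsr1 a planar polarity cadherin, and their loci held 14, 14 and 6 and 37, 40 and 22 regions. Fer1l6, Npr3, Ppara and Wdr70 had 6 each and Asap1 5. Ppara, the fatty acid-sensing nuclear receptor, held 20, 15 and 6 regions, and its end region had a fold of 105, 125 and 23.4.

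Strong gained regions at 72 h were most numerous in bin 60 (59000001 to 60000000, with Trib1, Nsmce2, Sqle and Mtss1), with 14 of its 143, then bin 37 (Rnf19a, Pabpc1, Ywhaz) with 12 of 109, bin 63 with 10 of 30, and bins 59, 65 and 78 with 9 each. The strongest gained region lay inside Ttll1, a tubulin polyglutamylase, at 83493939 to 83494185, with a fold of 178 and none before. Trib1, a pseudokinase that leads C/EBPα to degradation, had gained regions 68951 bp from its end, with none at 0 h, 4.52 at 6 h and 56.2 at 72 h, and 117091 bp from it, with none, 4.52 and 46.8. Its locus held 19, 16 and 14 regions while its end region had a fold of 160, 179 and 247. Dab2, an endocytic adaptor, had a region inside the gene with none at 0 h, 6.78 at 6 h and 53.1 at 72 h, and its locus held 23, 26 and 34 regions. By nearest gene end St3gal1, a sialyltransferase, led with 5 gained strong regions and 33, 36 and 42 regions at its locus. Trib1, Rnf19a, Zfp706, Asap1, Nsmce2 and Apol8 had 4 each, and Dab2, Retreg1 and Lrp12 had 3 each. Asap1, an Arf GTPase-activating protein, and its neighbourhood thus held both 5 lost and 4 gained.

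At 6 h the counts per gene were low. Ywhaz and Mtss1 had 3 lost strong regions each, and Ano6, Cacna1i, Scn8a, Tmbim6, Atp6v1c1, Iqank1, Npr3 and Zfat 2 each. Shisal1, Hoxc9, Retreg1, Gramd4, Nsmce2 and Rrm2b had 2 gained each, and Tars, Dnajb7, Dnal4 and Stk3 had 1. The highest of them, inside Shisal1 at 84429746 to 84429811, had a fold of 28.6 at 6 h and was in neither other list. The Npr3 locus, of a natriuretic peptide clearance receptor, held 7, 2 and 2 regions.

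The highest regions lay mostly at gene ends and were listed at each time. The highest of all, at 75085954 to 75087040, lay between Ly6c1 and Ly6c2, 21665 bp from Ly6c2, and its folds in the 3 lists were 977, 974 and 652. It overlapped no annotated gene. The second at 0 h, at the start of Hoxc10, went from 454 to 499 and then to 141, and its percentile among gene ends was 99.9 at 0 h and 77.7 at 72 h. An end of Nfe2, a blood cell basic leucine zipper factor, had 277, 306 and 254, and the promoter of Kansl2, a subunit of a histone acetyltransferase complex, 255, 291 and 342. The promoter of Ankrd54 had 231, 292 and 334 and an end of Mroh1 254, 278 and 334. A region 37956 bp from Rbx1, outside annotated genes, had 253, 305 and 343. Folds of different libraries rest on different backgrounds and show no change by themselves.

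Gene groups were compared by the number of regions at their loci, where long genes hold more and a region shared by neighbouring loci is counted in each of them. All 776 coding loci of chromosome 15 held 10179, 9611 and 7783 regions at the 3 times in turn, an order kept below: 580 held fewer at 72 h than at 0 h, 113 more and 83 the same, with a median change of -3. Ratios of 72 h to 0 h below are to be read against 0.765 for all these loci.

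**Figure D5:**
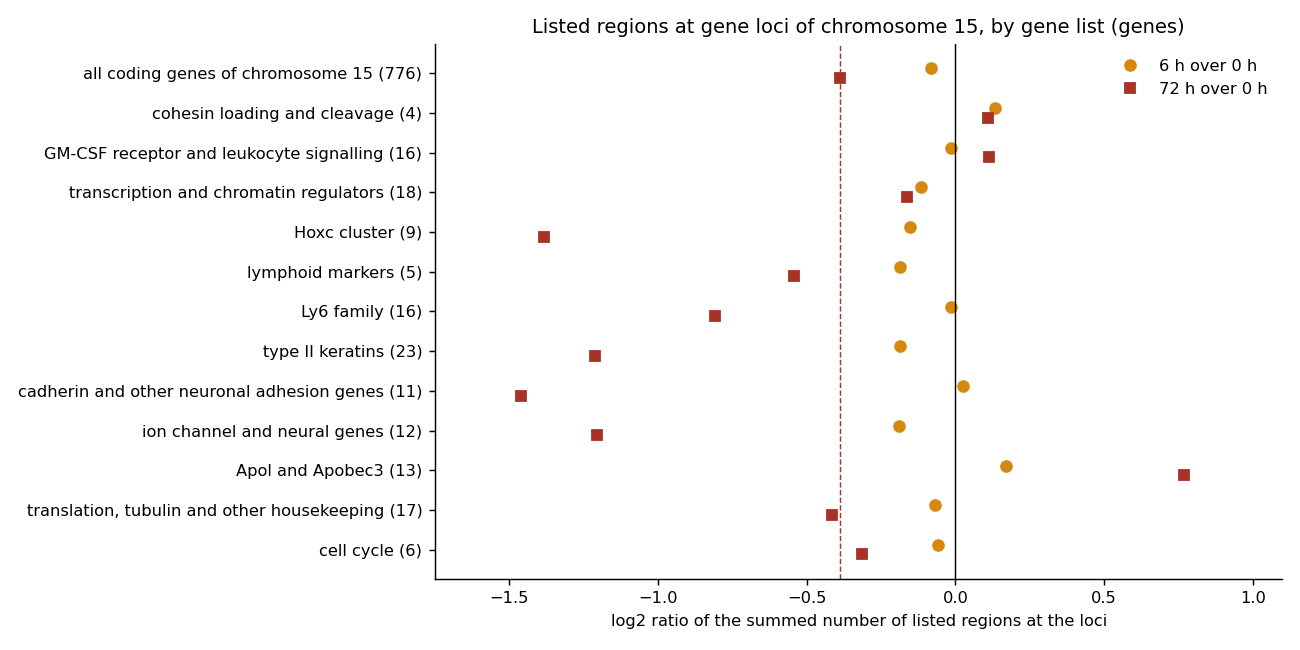
Log2 ratio of the summed number of regions at the loci of each gene list, 6 h over 0 h (circles) and 72 h over 0 h (squares), with the number of genes in brackets; the solid line marks no change and the dashed line all coding loci of the chromosome at 72 h. The Hoxc, keratin, cadherin and neural lists lie to the left of the dashed line, and the Apol and Apobec3, leukocyte signalling and cohesin lists to the right of the solid one.

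Loci of the cohesin machinery held like numbers of regions at the 3 times. The 4 genes held 51, 56 and 55 regions. Nipbl, the degron target (8289824 to 8465315), held 27, 31 and 30, and Rad21, the cohesin subunit that separase cleaves, held 6, 7 and 8. Espl1, which is separase, held 14, 14 and 12 with an end region of fold 122, 134 and 138, and the meiotic Smc1b 4, 4 and 5. The degron acts on the protein, so the Nipbl locus does not check the depletion.

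Loci of the GM-CSF receptor and leukocyte signalling held 307, 304 and 332 regions over 16 genes, a ratio of 1.08 at 72 h. Of these genes 5 held more, 8 fewer and 3 the same number at 72 h, and all 16 had an end region at each time. Csf2rb, the shared β chain, held 17, 22 and 24 regions with an end fold of 74.1, 71.6 and 70.3. Csf2rb2, the mouse interleukin 3-specific β chain whose promoter is printed above, held 9, 10 and 13. The higher sum rested on Myh9, the non-muscle myosin heavy chain of motile cells, with 57, 59 and 100 regions. Without it the other 15 genes held 250, 245 and 232. The locus of Myh9 overlaps that of Apol8, a member of the next list, so regions they share count in both lists. Parvg, the leukocyte parvin that links integrins to actin, held 23, 14 and 15 regions. The highest fold at its ends was 23.4, 29.4 and 60.9, at percentiles of 17.9 at 0 h and 40.6 at 72 h. At 0 h and 6 h that was not a region of the printed promoter window, where the highest fold was 21.2, 13.6 and 60.9. Ncf4, an NADPH oxidase subunit, held 23, 21 and 20 with a highest region of 158, 191 and 286. Rac2, a small GTPase of blood cells, held 15, 16 and 15, Irak4, the kinase below Toll-like receptors, 6, 10 and 10, and Fyb, an adaptor of integrin activation, 28, 29 and 23.

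The Apol and Apobec3 list had the highest ratio of the 12 lists at 72 h, 1.70, with 64, 72 and 109 regions in 13 genes. It rested on 2 adjacent genes. Apol8 held 11, 17 and 52 regions and Apol9b 7, 6 and 26, while of the other 11 genes 4 held more and 6 fewer at 72 h. Apol genes encode apolipoprotein L proteins, several of them induced by interferon. The stretch from the start of Apol9b to the end of Myh9 (77729047 to 77842175, 113 kb) held 49, 62 and 121 regions, which covered 10894, 12284 and 25277 bp. A 72 h region overlapped 44 of the 49, 5 strong regions were gained and 0 strong ones lost. Inside Myh9, a region at 77835880 to 77836457 had a fold of 31.0, 31.7 and 130, and one at 77800540 to 77801138 had 169, 218 and 305. The median fold of the stretch was 7.56, 6.78 and 5.47, so most of the added regions were low. Apobec3, a cytidine deaminase that restricts retroviruses, held 15, 16 and 10 regions. Apol genes lie in near-identical copies, and how reads that match several copies were treated is not given in the sources used here.

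The list of transcription and chromatin regulators held 378, 349 and 338 regions in 18 genes, with 14 lower at 72 h and 4 higher. Its end regions spanned the range of heights: the 15 genes ranked at all 3 times had a median percentile of 75.1, 78.6 and 89.8, beside 68.1, 69.7 and 65.0 for all genes ranked on the chromosome. The lowest of the 15 was Rarg, a retinoic acid receptor, at percentile 7.27 with 10.6, 13.6 and 7.81, and Hdac7, a histone deacetylase, had 6.05, 7.53 and none. Sp1 had an end fold of 249, 310 and 325, Mrtfa, a coactivator of serum response factor, 178, 212 and 247, Kmt2d, a histone H3 lysine 4 methyltransferase, 190, 225 and 236, and Ep300, the acetyltransferase p300, 168, 190 and 244. At 0 h the lowest of the 4 from Sp1 to Ep300 stood at percentile 96.8 among gene ends. Trps1, a GATA-type repressor, held 42, 39 and 51 regions, and its bin 51 was among the 5 with the highest overlap at 72 h, 70.0% (57.9 to 80.4). Nr4a1, the immediate early nuclear receptor, held 19, 18 and 21. Cbx7, a Polycomb subunit, held 24, 21 and 13, and its weak end region, 4.54 at 0 h, was not listed at 72 h. Zfpm2, a cofactor of GATA factors, held 7, 12 and 2.

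The highest fold within 1 kb of an end of Myc was lower at 72 h, but need not be that of the same region. The stretches downstream of Myc differed from each other. The Myc locus (61985341 to 61990361) held 10, 8 and 9 regions. Its end region had a fold of 74.8 at 0 h, 71.6 at 6 h and 18.7 at 72 h, and its percentile among gene ends went from 55.9 to 16.1 between 0 h and 72 h. The span of Pvt1, the noncoding gene next to it (62037986 to 62260215), held 30, 24 and 43 regions, with 7 strong ones gained and 0 lost at 72 h. Of the regions listed there at each time, one with folds of 77.9, 88.2 and 165 stood 188 kb from Myc, and one with 21.9, 26.4 and 147 stood 262 kb from it. From the end of Pvt1 to Gsdmc, a further 1516 kb without coding genes, the number went from 94 to 86 and 64, with 9 strong regions lost and 5 gained. The highest region there at 0 h, 1611 kb from Myc at 63601636 to 63601838, had 109, 93.4 and 66.4, and the next, 1658 kb from Myc, 72.6, 64.8 and 23.4. A neighbour 1627 kb from Myc went the other way, with 37.0, 42.2 and 83.5. These stretches were chosen after their values were seen.

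The Hoxc cluster held far fewer regions at 72 h. Its 9 genes, homeobox factors of body patterning, held 60, 54 and 23 regions in all, and all 9 held fewer at 72 h. Hoxc6 held 11, 10 and 4, and the highest of them, at 102999197 to 102999732 about 1 kb inside the gene, had a fold of 54.4, 70.8 and 21.1. Hoxc4 held 6, 8 and 1 and Hoxc5 4, 6 and 1, and Hoxc12 and Hoxc13, with 3 and 2 regions at 0 h, had none at 72 h. An end region was listed for 8 of the 9 genes at 0 h, 7 at 6 h and 4 at 72 h. From the start of Hoxc13 to the end of Hoxc4 (116 kb) the regions counted once numbered 29, 25 and 11, and a 72 h region overlapped 9 of the 29. The region at the start of Hoxc10 was the highest of the cluster in each list.

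The Ly6 family, small GPI-anchored surface proteins with several leukocyte antigens, held 91, 90 and 52 regions in 16 genes. Of these 11 held fewer at 72 h, 3 more and 2 the same, and the number with an end region was 10 at 0 h and 4 at 72 h. The 3 with more were Ly6i (3, 4 and 6), Ly6a, which is the stem cell antigen Sca-1 (4, 4 and 5), and Ly6g, the neutrophil antigen of the Gr-1 antibody (3, 5 and 6). The end region of Ly6a, 10.6 at 0 h and 6.78 at 6 h, was not listed at 72 h, while Ly6g gained the promoter region shown above. Psca and Slurp1 held 13 regions each at 0 h and 5 and 4 at 72 h. A region beside Slurp1 had 69.5, 84.4 and 55.4 and counted as an end region at 0 h alone, since its edges in the later lists lay outside the 1 kb window. A higher region within 10 kb of Slurp1 had 124, 142 and 162. Ly6 genes are close copies of each other, so reads may be divided between them in a way the files do not show.

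Loci of genes of other tissues held fewer regions at 72 h, by a larger share than all loci of the chromosome. The 23 type II keratins, filament proteins of epithelia, held 132, 116 and 57 regions, and 22 held fewer at 72 h, the other, Krt6b, having none at any time. Krt5 had 4, 3 and 0 and Krt4 4, 4 and 0, with end folds of 9.07 and 21.2 at 0 h and none at 72 h. Krt80 had 19, 17 and 11 and Krt78 21, 23 and 13, and a region beside Krt78 at 101977377 to 101977727 was high at each time, with 125, 173 and 182. Krt8 had 8, 10 and 3, among them a region of 3.78, 6.03 and 8.59. The 11 cadherins and other neuronal adhesion genes held 165, 168 and 60 regions, and 10 held fewer at 72 h. Csmd3 had 32, 35 and 11, Ctnnd2, δ-catenin, 28, 31 and 12, Cdh18 20, 21 and 6 and Cdh12 18, 15 and 4; only Cdh9 held more, 3, 7 and 4. The 12 ion channel and neural genes held 129, 113 and 56, with 10 fewer and 2 the same. Adcy8, a brain adenylyl cyclase, had 14, 10 and 1, Kcnq3, a potassium channel, 25, 20 and 11, and Shank3, a synaptic scaffold, 11, 10 and 2. Lrrk2, a kinase also of myeloid cells, held 15, 17 and 15. The 5 lymphoid genes held 83, 73 and 57 regions, a ratio of 0.687 and thus nearer the 0.765 of all loci. All 5 held fewer at 72 h, such as Tnfrsf13c, the BAFF receptor, with 15, 15 and 6, where 580 of all 776 loci held fewer.

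The 5 bins with the lowest overlap held 1 or 2 coding genes each, but so did bins 68 and 51 among the 5 with the highest, with 1 each. Bin 70 (69000001 to 70000000), which holds the end of Khdrbs3, had 14 regions at 0 h, 12 at 6 h and none at 72 h, so that 0 of 14 were overlapped, with an upper bound of 23.2%. Bin 93 (Cntn1 and Pdzrn4, neuronal genes) had 2 of 20 overlapped, 10.0% (1.24 to 31.7), and bins 88, 23 and 14 had 2 of 15, 2 of 14 and 3 of 18. The highest were bin 28 (Trio and Ank) with 99 of 130, 76.2% (67.9 to 83.2), bin 68 (St3gal1) with 72.4%, bin 60 (Trib1) with 71.5%, bin 51 (Trps1) with 70.0% and bin 67 (Sla and Ndrg1) with 69.5%. The median over the 98 bins was 47.6%.

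Housekeeping and cell cycle loci had ratios near that of all loci of the chromosome. The 17 genes of translation, tubulin and related functions held 232, 221 and 174 regions, a ratio of 0.750, with 13 fewer, 1 more and 3 the same. Rpl3, a ribosomal protein, had 28, 26 and 14 regions while its end fold was 187, 187 and 197, and Pabpc1, the poly(A)-binding protein, 7, 9 and 7 with 192, 229 and 248. Tuba1a, an α-tubulin, had an end fold of 101, 133 and 61.7, at percentiles 73.1 at 0 h and 41.0 at 72 h. The 6 cell cycle genes held 77, 74 and 62, a ratio of 0.805, with 3 more and 3 fewer, such as Racgap1, a cytokinesis factor, with 13, 13 and 14 and Rangap1, the Ran GTPase activator, with 17, 13 and 8.

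Other end regions that shifted most in rank were picked after their values were seen, from the 461 of the 505 ranked genes whose highest end region was the same by overlap at each time. Myo10, the myosin of filopodia, had 159, 171 and 57.8, and Dnajc22, a J-domain protein, 122, 177 and 68.7. Cpq, a carboxypeptidase, had 67.3, 88.9 and 19.5. Their percentiles differed by -56.4, -39.2 and -33.8 points between 0 h and 72 h, and that of Ppara, given above, by -55.9. In the other direction BC024139 had 32.5, 33.9 and 115, with a percentile 43.6 points higher at 72 h. Scube1 had 46.9, 43.7 and 112, Panx2, a pannexin channel, 62.0, 68.6 and 134, and Soat2, a cholesterol esterifying enzyme, 67.3, 58.0 and 144, and the percentiles of those 3 were 31.2, 28.8 and 28.4 points higher. Of the 10 genes whose end region was listed at 72 h but not at 0 h, Tg had the highest, 15.6, then Ly6g with 12.5, Apol7c with 9.37 and, below Krt8, Dab2 with 7.81. The region of Krt8 also counted among the 10, although an overlapping region stood just outside the window at 0 h.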

How the data were processed

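The authors listed the open regions of each library separately, as 1 list per library. The submitters' processing notes name BWA 0.7.17, MACS2 2.2.7, bedtools 2.30.0 and the build mm10, without options. Each deposited line gives a position, a fold (a ratio of summit to background), −log10 p and −log10 q values and a display score derived from them, which was not used further. How duplicates, multiply matching reads and read ends were treated is not given in the sources used here. No value here measures the DNA content of a chromosome. Lists of different length and depth were compared by position only: a region missing from a list can hold signal below its minimum fold of 3.02 at 0 h, 3.01 at 6 h or 3.12 at 72 h, and read totals, hence depth, are unknown.

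Here, an overlap of at least 1 bp counted as a match (Python 3.11.15, pandas 2.3.3, SciPy 1.17.1). Strong regions were the upper 50% of a genome-wide list by −log10 q, at cutoffs of 7.82, 9.25 and 13.0. Lost means strong at 0 h with no later region, and gained strong later with no 0 h region. Coding genes came from RefSeq (GRCm38.p6), without strand, so gene ends replaced start sites. Bins of 1 Mb count from base 1 of the chromosome. Named were list members whose locus counts or end regions differed most, the 10 genes per direction with the most strong lost or gained regions, the 5 extreme bins and the 5 strongest regions of each kind. Of the genes on the lists, Krt74 and Krt85 matched no symbol. The members and lists were chosen with earlier results of these data known. No test was run, since each time had 1 library. The overlap code was tested on simulated regions. Alternatives covered the overlap rule, the strength cutoffs, merging, trimming of lists and matching by genes.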

Additional observations from a re-analysis of the deposited data

How the results depend on the processing

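With 1 library per time, replicate error is unknown, and fewer listed regions at 72 h can come with depth, which is unknown too. Intervals cover counting error only. No paired analysis was possible because each time had 1 library.

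Regions per Mb at 0 h, 6 h and 72 h were 105, 99.7 and 75.4 over the span from first to last region, 76.6, 74.4 and 52.1 with regions under 500 bp apart merged, and 34.8, 37.2 and 36.2 with a fold of at least 10, where the 72 h value is above that of 0 h. The ratio to the other autosomes stayed above 1 in each of these settings. The share of 0 h regions overlapped at 6 h was 62.9% with a reciprocal overlap of 50%, 75.1% merged, 81.0% with lists trimmed to the shortest and 99.9% with a fold of at least 10. At 72 h it was 42.8% reciprocal, 66.4% trimmed and 93.0% with a fold of at least 10. The difference from the other autosomes was negative as reported, -4.23 points at 6 h and -5.26 at 72 h. With a fold of at least 10 it was -0.774 at 72 h and turned to 0.115 at 6 h, and in the remaining settings run it stayed negative. Strong regions lost at 72 h were 31.1% reciprocal, 14.2% merged, 11.6% at a −log10 q of at least 10, 6.96% at a fold of at least 10, 2.40% in the upper 25% and 9.69% trimmed. Those gained were 23.5% reciprocal, 3.77% merged, 5.21% at a fold of at least 10, 1.02% in the upper 25% and 8.03% trimmed. In each setting more were lost and fewer gained than on the other autosomes. The differences were 0.321 to 2.27 points for the lost and -1.51 to -0.349 points for the gained. The observed number over that of matched bins was 1.66 at 0 h with 3 classes of gene number. Following end regions by overlap, an alternative chosen after seeing the data, gave 14.3% of genes without one at 72 h in place of 14.6%.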
